A study of Mus musculus with 10 samples.

Results

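Transcripts of the actin cytoskeleton and of the contractile apparatus were measured in whole mouse pancreas that lacked the hippo kinases MST1 and MST2 (DKO, n = 5) and in control pancreas (n = 5). DKO animals carried PDX1Cre, a null Mst1 allele (Mst1-/-) and a floxed Mst2 allele (Mst2L/L), on a mixed strain background that the controls shared. Nothing beyond the word control describes the control genotype. Mst1 was missing from every cell, whereas Mst2 was lost only in cells with a history of Pdx1 promoter activity, that is in exocrine and endocrine epithelium and not in vessel walls or stroma. Neither the age nor the number of animals behind the arrays is stated, so p-values refer to the spread between samples, which may be technical.

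The gene set comprised 30 named genes of actin filaments and contraction. Rows of the Affymetrix Mouse Gene 1.0 ST value table with 1 gene symbol were used, and the brightest row (transcript cluster) over all 10 arrays stood for its gene. By this rule 29 of the 30 were measured, among 19938 genes in all. Actg1 had no row of its own, because its 4 rows are shared with Actb. The set held 10 smooth muscle-specific genes and 20 widely expressed genes, of which 19 were measured.

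Actin monomers polymerise into filaments that are crosslinked by alpha-actinins and filamins, wrapped by tropomyosins and pulled by type II myosins. Filaments end on focal adhesions and cell junctions, where vinculin and talin tie them to integrins or cadherins. In smooth muscle a dedicated set of isoforms makes the contractile machine, and in pancreas these lie mainly in the walls of arteries, veins and larger ducts. In epithelial cells the widely expressed isoforms form the cortex and the apical actin web around the duct or acinar lumen. Filament tension raises the activity of YAP and TAZ, the transcriptional coactivators that MST kinases restrain, and many actin genes are in turn targets of SRF and its MRTF partners.

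All values are log2 intensities as deposited, and a log2 change is the DKO mean minus the control mean. Array medians over all 35556 rows lay between 7.12 and 7.15. The lowest value of any of the 29 genes was 6.74, and unexpressed Y-linked genes reached at most 5.21. The arrays do not allow levels of different genes to be compared. Stk4, the gene of MST1, read 5.07 to 5.21 in DKO and 5.01 to 5.23 in control, at the level of unexpressed genes, and so gave no check of the labels. Stk3, the gene of MST2, was not analysed here. DKO replicate 1 stood apart by hepatocyte transcripts (mean of 9 markers 11.53, against 6.66 to 7.85 in the other DKO arrays and 6.76 to 7.84 in control), so values without it are given below. The number of arrays limits the precision, with a median standard error (SE) of 0.0754 per log2 change.

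Of the 19 widely expressed cytoskeletal genes 10 rose in DKO pancreas, 9 did not pass the test and none fell, with a median log2 change of 0.29. Of the 10 smooth muscle-specific genes 1 rose (Mylk), 9 did not pass and none fell, with a median of 0.03. The difference between the classes was not tested. The test was limma with Benjamini-Hochberg adjustment over all 19938 genes at a threshold of 0.05. By it 2.08% of all genes rose and 0.366% fell (414 and 73 genes), and the median change over all genes was -0.006. After another quantile normalization the split was 321 higher and 125 lower, with 8 members higher, and after subtraction of array medians it was 271 higher and 103 lower, with 7 members higher. No member was lower under either. In the brighter part of the table, without the dimmest 50% of genes, the median over all genes was 0.04 and 4.50% rose. There 11 of the 18 widely expressed members left rose, and 1 of the 6 smooth muscle-specific members left. The smooth muscle-specific genes read lower (array means of 8.20 to 8.43) than the widely expressed genes (10.09 to 10.51). Whether differences were compressed at lower readings was not tested.

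**Figure D1:**
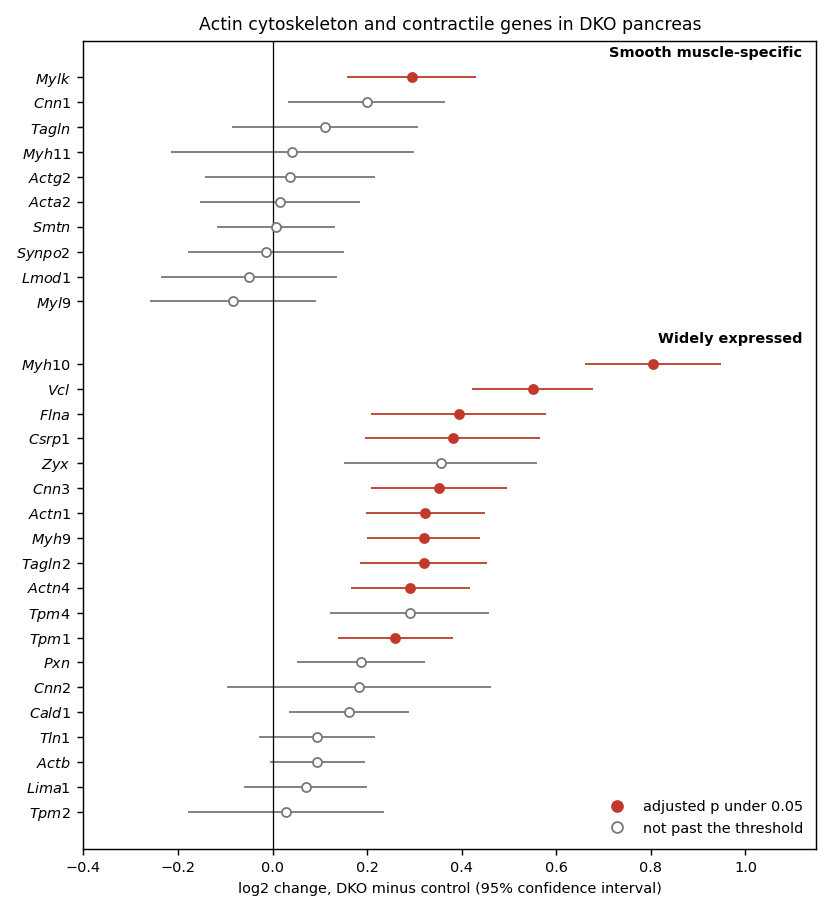
Log2 change (DKO minus control, horizontal axis) of the 29 measured genes, with 95% confidence intervals from the limma fit; red points had an adjusted p under 0.05 and open grey points did not. All 19 widely expressed genes lay to the right of 0, from 0.03 (Tpm2) to 0.80 (Myh10), though 18 did after subtraction of array medians, while smooth muscle-specific genes lay between -0.08 (Myl9) and 0.29 (Mylk).

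The short sequences before the start sites are shown for the genes that rose and hold letters known from factors of this pathway. Promoter windows of 300 bases (250 before to 50 after the start, RefSeq, GRCm38.p6) were found for 25 of the 30 genes. No window was found for Tagln, Myh11, Actg2, Actb or Pxn. The letters GGAATG or their reverse complement CATTCC, read by TEAD factors that carry YAP and TAZ to DNA, occur in 14.7% of 32851 windows of all genes. They were present in 7 of the 11 genes that rose and in 4 of 13 measured genes with a window that did not pass. These 4 were Acta2, Lmod1, Smtn and Cald1. By class, the letters were present in 4 of 7 smooth muscle-specific genes with a window and in 7 of 18 widely expressed genes with a window. The CArG box of SRF, searched on both strands, was taken strictly as 10 letters: CC, then only A or T, then GG. In this form it occurs in 1.63% of all windows. It was present in 1 of the 11 (Vcl) and in 3 of the 13 (Cnn2, Lima1 and Myl9), as well as in Actg1. Boxes with other letters or outside the windows were not searched, so a gene without a match may still hold one. In Vcl, which holds both motifs, they do not overlap. In the lines below capitals mark these letters, each line runs 5′ to 3′ along the gene's strand, and no test was made of the counts.
Myh10: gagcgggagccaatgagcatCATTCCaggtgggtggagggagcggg
Vcl: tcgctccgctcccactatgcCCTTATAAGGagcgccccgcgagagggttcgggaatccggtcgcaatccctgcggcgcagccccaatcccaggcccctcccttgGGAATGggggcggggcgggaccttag
Flna: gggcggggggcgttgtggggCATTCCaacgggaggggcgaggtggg
Tagln2: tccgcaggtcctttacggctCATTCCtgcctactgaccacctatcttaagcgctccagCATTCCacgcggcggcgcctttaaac
Mylk: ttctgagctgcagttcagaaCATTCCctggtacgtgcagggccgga
Actn4: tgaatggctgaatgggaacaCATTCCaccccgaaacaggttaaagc
Tpm1: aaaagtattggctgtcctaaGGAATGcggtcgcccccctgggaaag
Myl9: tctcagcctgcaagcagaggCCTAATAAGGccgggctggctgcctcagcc

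The stretch of Myh10 lies at chr11:68691888-68691933 on the plus strand, where the letters begin 7 bases before the start. That of Vcl lies at chr14:20929151-20929280 on the plus strand, with the CArG box 227 and the other letters 143 bases before the start. Flna (chrX:74246655-74246700, minus strand) holds them 146 bases before the start, and Tagln2 (chr1:172500108-172500191, plus strand) holds them at both 118 and 80. The remaining stretches are Mylk (chr16:34784772-34784817, plus strand), Actn4 (chr7:28962523-28962568, minus strand), Tpm1 (chr9:67049244-67049289, minus strand) and Myl9 (chr2:156775283-156775332, plus strand). Myl9 is shown because it holds a CArG box and did not pass the test. A match of letters does not show that a factor binds there.

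Both non-muscle myosin heavy chains rose, Myh10 by more than any other member. Myh10, the heavy chain of non-muscle myosin IIB, read 10.16, 10.00, 9.93, 9.91 and 10.00 in DKO replicates 1 to 5, against 9.28, 9.14, 9.05, 9.19 and 9.31 in control replicates 1 to 5. The lowest DKO array stood well above the highest control array, and the mean change was 0.80 ± 0.07 (SE), a 1.75-fold increase (limma adjusted p = 0.000139). Myh9, the heavy chain of myosin IIA and the main force producer of most non-muscle cells, read 10.86, 10.87, 10.65, 10.82 and 10.72 in DKO, against 10.53, 10.45, 10.43, 10.49 and 10.42 in control. It rose by 0.32 ± 0.05 (SE, adjusted p = 0.0117), again without overlap of the groups. A second, dimmer row of Myh9 differed by 0.35, with DKO arrays at 7.44 to 7.80 and control arrays at 7.13 to 7.30. Myh11, the smooth muscle myosin heavy chain of the same family, read 7.99, 8.02, 8.42, 8.29 and 8.06 in DKO, against 8.24, 7.87, 8.14, 7.92 and 8.39 in control. Its groups overlapped fully and the change was 0.04, with a 95% confidence interval of -0.21 to 0.30 (adjusted p = 0.889). The intervals of Myh10 and Myh9 were 0.66 to 0.95 and 0.20 to 0.44, so that of Myh9 overlapped that of Myh11, and the difference between the genes was not tested.

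Among adhesion proteins the increase was largest in Vcl. Vinculin, its product, links talin and alpha-catenin to actin at focal adhesions and cell junctions. Vcl read 9.92, 9.91, 9.68, 9.86 and 9.78 in DKO, against 9.32, 9.20, 9.23, 9.33 and 9.32 in control. The groups lay far apart compared with their spread, and the change was 0.55 ± 0.06 (SE), a 1.46-fold increase (adjusted p = 0.000983). Zyx encodes zyxin, a LIM protein recruited to strained filaments. It read 10.22, 9.79, 9.99, 10.16 and 10.10 in DKO, against 9.79, 9.82, 9.67, 9.46 and 9.76 in control. DKO replicate 2 alone fell among the controls, and the difference of 0.36 ± 0.09 (SE) did not pass (adjusted p = 0.0801), except without DKO replicate 2 (0.0328) or without the dimmest 50% of genes (0.0499). Pxn, the adaptor paxillin, differed by 0.19 (adjusted p = 0.174). Tln1, the integrin activator talin, differed by 0.09 (adjusted p = 0.465), with DKO arrays at 9.87 to 10.01 and control arrays at 9.67 to 9.89. Adhesion genes therefore ranged from a 1.46-fold increase to differences within the spread of the arrays.

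Of the 5 genes of filament crosslinkers and their partners, 4 rose and Lima1 did not pass. The alpha-actinin gene Actn1 read 11.13, 10.96, 11.01, 11.11 and 11.07 in DKO, against 10.86, 10.76, 10.72, 10.62 and 10.71 in control. Its change was 0.32 ± 0.06 (SE, adjusted p = 0.0144). Actn4, the other non-muscle alpha-actinin, read 11.94, 11.87, 11.69, 11.74 and 11.77 in DKO, against 11.51, 11.44, 11.49, 11.60 and 11.51 in control. In both genes every DKO array exceeded every control array, and Actn4 rose by 0.29 ± 0.06 (SE, adjusted p = 0.0245). Flna, the orthogonal crosslinker filamin A, read 10.70, 10.87, 10.49, 10.69 and 10.63 in DKO, against 10.29, 10.32, 10.06, 10.27 and 10.46 in control. Lowest in DKO replicate 3 and highest in control replicate 5, its groups nearly touched, and the change was 0.39 ± 0.08 (SE, adjusted p = 0.0375). Csrp1 encodes a LIM protein that binds alpha-actinin and is abundant in smooth muscle as well as in other cells. It read 12.17, 11.92, 11.79, 11.72 and 11.96 in DKO, against 11.40, 11.55, 11.61, 11.62 and 11.46 in control, a change of 0.38 ± 0.08 (SE, adjusted p = 0.0416). Lima1, the bundling protein EPLIN, differed by 0.07 (95% confidence interval -0.06 to 0.20, adjusted p = 0.615).

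Of 3 calponin and 2 transgelin genes, Cnn3 and Tagln2 rose and the others did not pass; differences between the genes were not tested. Cnn3, the acidic calponin of non-muscle cells, read 10.77, 10.92, 10.58, 10.79 and 10.75 in DKO, against 10.45, 10.45, 10.29, 10.41 and 10.44 in control. Tagln2, the transgelin of epithelial and blood cells, read 10.75, 10.84, 10.70, 10.97 and 10.85 in DKO, against 10.53, 10.62, 10.42, 10.46 and 10.49 in control. The groups of each did not overlap, and the changes were 0.35 ± 0.07 (SE, adjusted p = 0.0182) and 0.32 ± 0.06 (SE, adjusted p = 0.0209). Cnn1, the calponin of smooth muscle, read 7.29, 7.06, 7.09, 7.05 and 6.93 in DKO, against 6.76, 6.94, 6.76, 6.98 and 6.98 in control. Only DKO replicate 5 overlapped the controls there, and the difference of 0.20 ± 0.08 (SE) did not pass (adjusted p = 0.249). Tagln, the smooth muscle transgelin SM22, read 8.30, 8.54, 8.10, 8.30 and 8.15 in DKO, against 8.23, 8.11, 8.02, 8.13 and 8.35 in control. It was mixed between groups, with a difference of 0.11 (95% confidence interval -0.09 to 0.31, adjusted p = 0.593). Cnn2, the neutral calponin, differed by 0.18 (adjusted p = 0.533) and was the most variable of the widely expressed genes, with DKO arrays from 9.25 to 9.96 and control arrays from 9.24 to 9.66.

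Of the 3 tropomyosin genes 1 passed the test. Tpm1 codes for muscle and non-muscle forms and read 10.14, 10.18, 10.07, 9.98 and 10.03 in DKO, against 9.78, 9.81, 9.75, 9.81 and 9.94 in control. It rose by 0.26 ± 0.06 (SE, adjusted p = 0.0364), with control replicate 5 close to the lowest DKO array. Tpm4, chiefly a non-muscle form, read 11.37, 11.69, 11.24, 11.39 and 11.40 in DKO, against 11.17, 11.09, 11.05, 11.20 and 11.13 in control. Its groups did not overlap, but the difference of 0.29 ± 0.08 (SE) did not pass (adjusted p = 0.0846). Another row that names Tpm4 together with Gm7809, left out of the test, differed by 0.21. Tpm2, which is prominent in muscle although classed here as widely expressed, read 7.23, 7.41, 7.43, 7.47 and 7.47 in DKO, against 7.48, 7.33, 7.15, 7.24 and 7.67 in control (log2 change 0.03, 95% confidence interval -0.18 to 0.24). Cald1, the actin- and myosin-binding protein caldesmon, differed by 0.16 (adjusted p = 0.217).

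Actins showed small differences. Actb, the cytoplasmic beta-actin, read 13.36, 13.29, 13.21, 13.24 and 13.23 in DKO, against 13.12, 13.20, 13.15, 13.19 and 13.20 in control. No DKO array fell below a control array, yet the difference of 0.09 ± 0.05 (SE) did not pass (adjusted p = 0.368). These values stand near the array maxima of 13.77 to 13.94, where differences may be compressed, which was not tested. The 4 rows shared by Actg1, the cytoplasmic gamma-actin, and Actb were outside the test. One of them averaged 12.58 ± 0.02 in DKO and 12.35 ± 0.05 in control (SD, n = 5 each), and all 4 differed by 0.21 to 0.23 without overlap of the groups. Acta2, the smooth muscle alpha-actin and common marker of mural cells and activated stellate cells, read 10.72, 10.89, 10.72, 10.65 and 10.73 in DKO, against 10.71, 10.60, 10.60, 10.75 and 10.97 in control. Control replicate 5 was the highest of all arrays, and the difference was 0.02 (95% confidence interval -0.15 to 0.18, adjusted p = 0.942). Actg2, the enteric gamma-actin, differed by 0.04 (95% confidence interval -0.14 to 0.22), with DKO arrays at 7.38 to 7.56 and control arrays at 7.16 to 7.58. Actins are nearly identical in sequence, so probes of 1 actin may also read another.

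**Figure D2:**
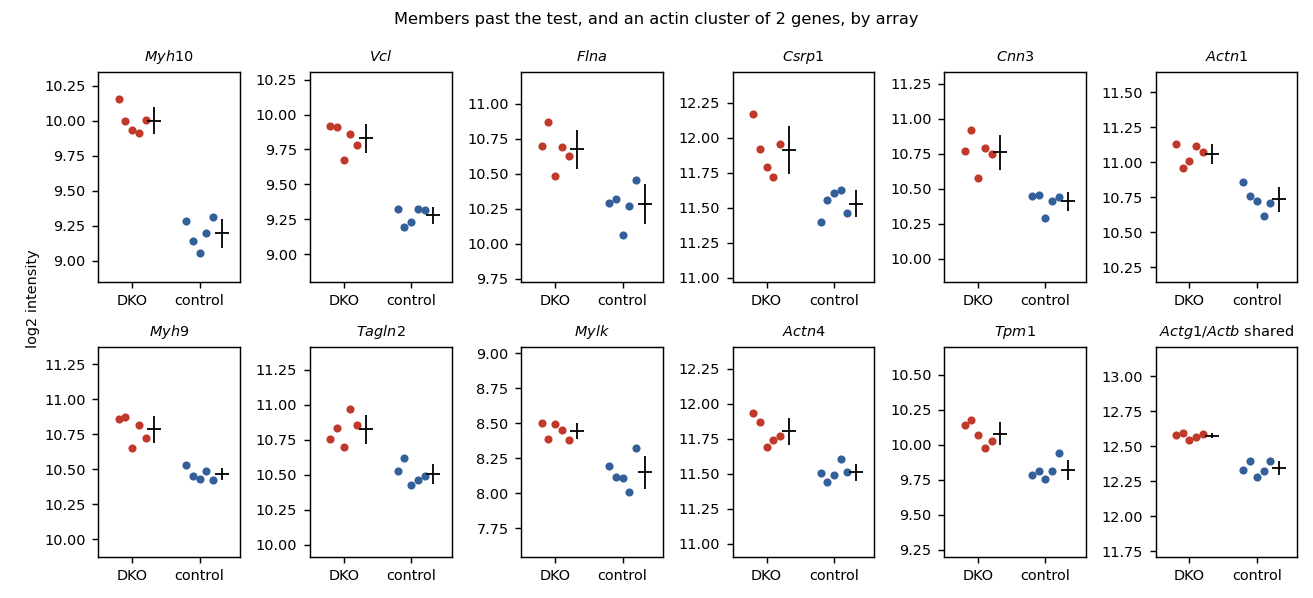
Log2 intensity (vertical axis) in each DKO array (red) and control array (blue) for the 11 genes past the test and for 1 row shared by Actg1 and Actb, which was not tested; points run from replicate 1 to 5, horizontal marks are means and bars SDs (n = 5). All panels span the same number of log2 units, and in every panel the lowest DKO array lies above the highest control array.

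Of the remaining smooth muscle-specific genes only Mylk rose. It encodes the kinase that phosphorylates myosin light chains, from a gene that also gives a non-muscle form, and the row does not separate the forms. Mylk read 8.50, 8.39, 8.49, 8.45 and 8.38 in DKO, against 8.20, 8.11, 8.11, 8.01 and 8.32 in control (0.29 ± 0.06 SE, adjusted p = 0.0340). The groups came close between DKO replicate 5 and control replicate 5. Myl9, the regulatory light chain of smooth muscle, read 9.94, 9.97, 9.82, 9.83 and 9.97 in DKO, against 10.00, 9.80, 9.89, 10.01 and 10.25 in control, a difference of -0.08 (adjusted p = 0.651). Smtn, the filament protein smoothelin, differed by 0.01 (95% confidence interval -0.12 to 0.13), and Lmod1, the smooth muscle filament nucleator leiomodin, by -0.05 (-0.24 to 0.14). Synpo2, a Z-disc and dense-body protein, differed by -0.01 (-0.18 to 0.15). For the 9 smooth muscle-specific genes that did not pass, the intervals reached at most 0.36 (Cnn1). Increases as large as that of Vcl or Myh10 lay outside all of them. The median change of the widely expressed genes, 0.29, lay inside the intervals of Cnn1, Tagln (up to 0.31) and Myh11 (up to 0.30). The median of the 10 was 0.03, but -0.01 after quantile normalization, -0.01 after subtraction of array medians and -0.002 with array weights, so it has no settled sign.

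**Figure D3:**
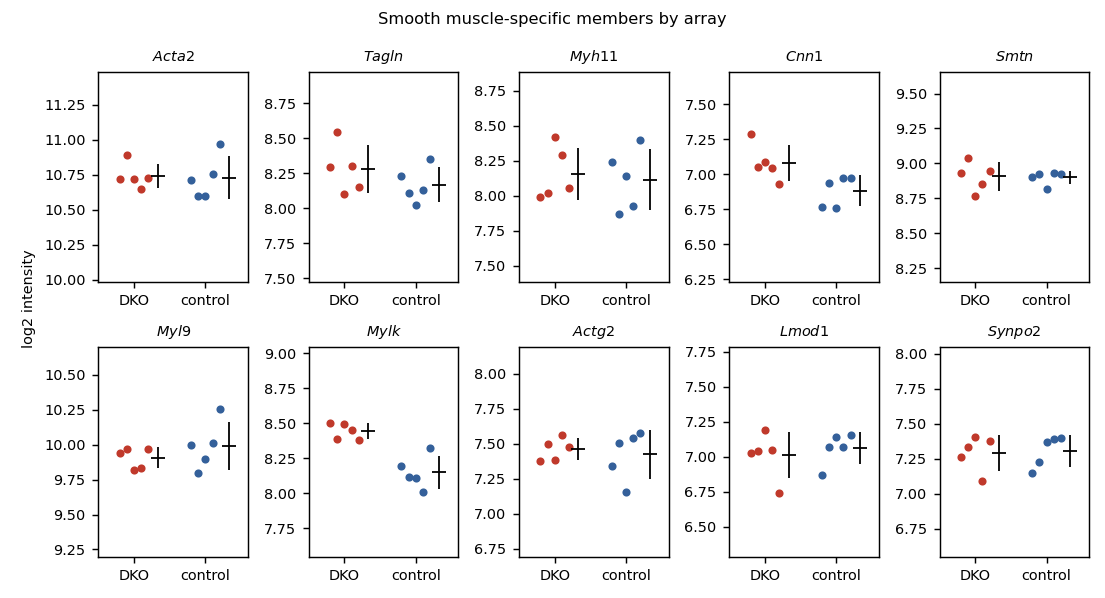
Log2 intensity (vertical axis) in each DKO array (red) and control array (blue) for the 10 smooth muscle-specific genes; points run from replicate 1 to 5, horizontal marks are means and bars SDs (n = 5). The groups overlap in all but Mylk, and control replicate 5 is the highest control array in 8 of the 10.

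Array by array, the 2 classes varied differently. Control replicate 5 held the highest control value of 8 of the 10 smooth muscle-specific genes and control replicate 3 the lowest value of 5. In the DKO group DKO replicate 2 was highest in 4 and DKO replicate 3 in 3. Among the 19 widely expressed genes, DKO replicate 1 was highest of the DKO arrays in 9 and DKO replicate 3 lowest in 12. Between 14 and 19 of the 19 exceeded their own 10-array median in each DKO array, against 0 to 4 in each control array. For the 10 smooth muscle-specific genes the same count was 4 to 7 in DKO and 3 to 7 in control. The groups of 12 of the 19 and of Mylk did not overlap, and for these genes such counts follow from that alone. Smooth muscle-specific genes also scattered more within groups: their median within-group SD stood at the 53.8 percentile of all genes, against the 26.4 percentile for the widely expressed genes. Of the 29 genes 13 had no overlap between groups, all with DKO higher (the 11 past the test, Actb and Tpm4), where 3.52% of all genes had every DKO array above every control array and 1.28% had every DKO array below.

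**Figure D4:**
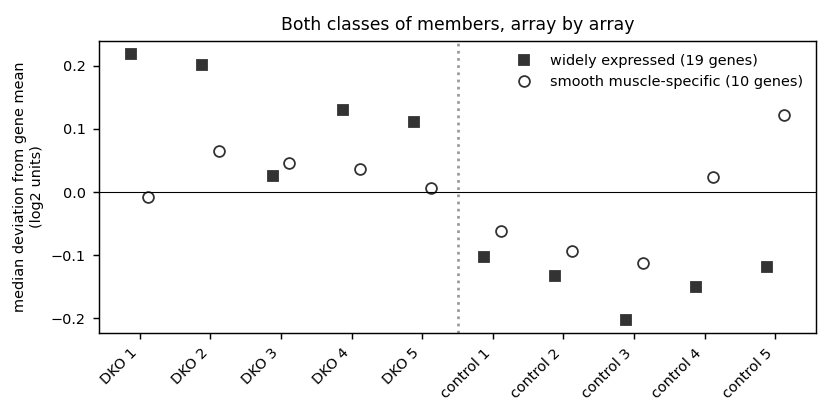
Median over the genes of each class of the deviation from the gene's own mean over 10 arrays (vertical axis, log2 units), for each array; filled squares are the 19 widely expressed genes and open circles the 10 smooth muscle-specific genes. Squares lie above 0 in all DKO arrays and below 0 in all control arrays, while circles mix, with control replicate 5 highest.

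The calls differed in how firmly they held. Without any single array Myh10, Vcl, Actn1 and Myh9 kept an adjusted p under 0.05 (highest 0.000987, 0.00410, 0.0436 and 0.0394). Without DKO replicate 1, the array with hepatocyte transcripts, 6 of the 11 calls remained (Actn1, Cnn3, Myh10, Myh9, Tagln2 and Vcl), and the median change of the widely expressed genes was 0.30. The count was 7 without DKO replicate 2, of which 1 (Zyx) was not among the 11, 6 without DKO replicate 5, 6 without control replicate 1, 6 without control replicate 2, 4 without control replicate 3 and 7 without control replicate 4. The call of Cnn3 ended in the absence of control replicate 3 (adjusted p = 0.0534). Tagln2 lost it without DKO replicate 5 (0.0548), control replicate 3 (0.0644) or control replicate 5 (0.0547). Actn4 did so on leaving out any of 6 arrays (DKO replicates 1 and 2 and all controls but replicate 4, highest 0.0744), and Flna, Tpm1 and Csrp1 on leaving out any of 8 (highest 0.0835, 0.0988 and 0.0993). Mylk kept its call only without control replicate 5 and lost it in the other 9 (highest 0.0963, without control replicate 2). The sizes moved less, at 0.34 to 0.44 for Flna, 0.23 to 0.29 for Tpm1, 0.32 to 0.43 for Csrp1 and 0.26 to 0.34 for Mylk. Quantile normalization and subtraction of medians each ended the calls of Mylk (0.106 and 0.0944), Flna (0.0587 and 0.0508) and Tpm1 (0.116 and 0.0838), and subtraction of medians that of Csrp1 (0.0663).

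Other genes of actin and myosin were read beside the members. Myl12a and Myl12b, the regulatory light chains of non-muscle myosin, rose by 0.48 ± 0.06 and 0.39 ± 0.05 (SE, adjusted p = 0.00255 and 0.00357). Myl12a read 10.13, 10.01, 9.96, 9.97 and 10.01 in DKO, against 9.67, 9.55, 9.35, 9.54 and 9.55 in control, which matches in direction the heavy chains Myh10 and Myh9. Of 4 genes of SRF and its coactivators none passed (2 at an unadjusted p under 0.05). The smallest p belonged to Mrtfa, an actin-sensing coactivator of SRF, at 0.19 (adjusted p = 0.265).

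Of 22 other focal adhesion genes 6 rose and none fell (median 0.10). Pdlim7, a LIM protein of stress fibres, rose by 0.54 ± 0.10 (SE, adjusted p = 0.0207), and Tns1, the adhesion protein tensin, by 0.39 ± 0.06 (SE, adjusted p = 0.00742). Evl, a filament elongation factor, rose by 0.30 (adjusted p = 0.0164) and Fermt2, the integrin activator kindlin-2, by 0.26 (adjusted p = 0.0354). The Pdlim7 call ended without control replicate 1 or 3 (0.0504 and 0.0644), that of Evl without control replicate 3 (0.0504) and that of Fermt2 without any of 7 arrays (highest 0.0943). Tns1 did not pass when its rows were averaged (0.0647). Of 15 actin nucleation genes 1 rose, the branch stabiliser Cttn (0.27, adjusted p = 0.0304), which lost its call without any of 7 arrays (highest 0.0909). Of 19 actin turnover genes 1 rose, the monomer-binding thymosin Tmsb10 (0.44, adjusted p = 0.0138). Of 21 cortex and microvillus genes 1 rose, the membrane linker Ezr (0.50, adjusted p = 0.0144), and none of these 3 lists held a gene that fell. Their medians were 0.12, 0.14 and 0.07. Over all genes 2.08% rose and 0.366% fell, and 4.50% rose without the dimmest 50% of genes. A single call, or no fall, therefore says little about a list of this length.

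Markers of cell types were read beside these values, since in whole tissue fewer cells of a type and less RNA per cell cannot be told apart. Over all genes 14.8% had an unadjusted p under 0.05 (1830 higher and 1128 lower in DKO). Of 15 mural cell markers none passed (2 at an unadjusted p under 0.05, median -0.02), and their summed intensity was 4948 to 5677 in DKO and 4730 to 5575 in control. None of 10 fibroblast and stellate markers passed (0 at an unadjusted p under 0.05), with sums of 26562 to 29767 in DKO and 25860 to 31004 in control. None of 8 endothelial markers passed (1 at an unadjusted p under 0.05), with sums of 5255 to 6189 in DKO and 5414 to 6213 in control. The stromal and vascular sums thus overlapped between groups. Gene by gene, the smooth muscle-specific members other than Mylk overlapped as well. Of 10 duct markers 5 rose and none fell by the test (8 higher and 1 lower at an unadjusted p under 0.05), among them Cldn4 (1.37), Krt7 (1.22) and Krt19 (0.41), with summed intensities of 16818 to 20693 in DKO and 13888 to 14687 in control. Sox9, a transcription factor gene of duct cells named here after its values were seen, differed by -0.26 and did not pass, although every DKO array lay below every control array. Of 9 acinar markers 1 fell, the transcription factor gene Rbpjl (-0.45, adjusted p = 0.0225), and the sums were 57331 to 66820 in DKO and 68215 to 70116 in control, without overlap. The Rbpjl call ended without DKO replicate 4 (0.0562), control replicate 3 (0.0689) or control replicate 5 (0.0608). No marker was listed at 0 on any array. The lowest value of any row was 2.79, so this does not show that the markers were expressed. The part of duct and acinar markers in the changes of the widely expressed genes was not tested.

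**Figure D5:**
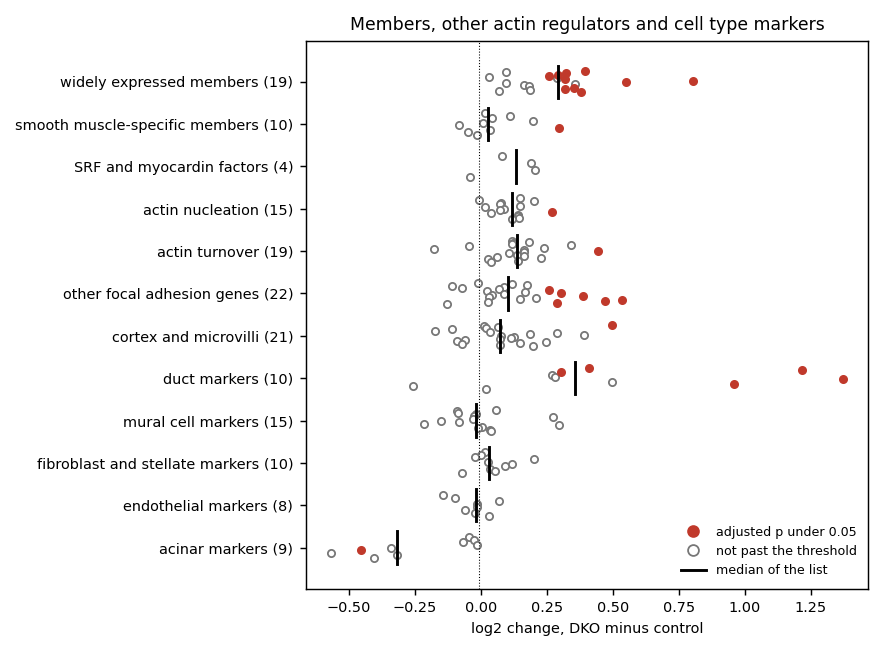
Log2 change (DKO minus control, horizontal axis) of each gene in the 2 classes of members, in 5 lists of other actin regulators and in 5 lists of cell type markers, with the number of measured genes in brackets; red points had an adjusted p under 0.05, open points did not, black bars are list medians and the dotted line is the median of all genes. Medians of the widely expressed members (0.29) and of duct markers (0.36) lie to the right, and that of acinar markers (-0.32) to the left.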

How the data were processed

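RNA of 10 pancreas samples was read on 1-colour arrays of the Affymetrix Mouse Gene 1.0 ST type. The log2 intensities deposited by the authors were made with Affymetrix Expression Console, per the submitters' processing notes. Which version, background correction or normalization it ran with: not given in the sources used here. Values were used as deposited, with no filter. Of 35556 rows 21789 had 1 symbol by the platform annotation, updated through RefSeq identifiers, and 999 genes had several rows. The named groups follow the labels. The test used limma 3.58.1 under R 4.3.3 (moderated, two-sided, 10.96 degrees of freedom). Errors are SEs of changes or SDs of 5 arrays. The members, the classes and the gene lists were chosen with earlier results of these data known, so counts and medians of lists are descriptions. All members are named. Of each list of regulators at most 4 genes past the test, or else that with the smallest p, were named, and of each marker list at most 3. The fit was tested on simulated data. Alternatives are those of the closing section. Protein identity between isoforms was not analysed here, and 1 list of regulators is not reported here apart from Myl12a and Myl12b.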

Additional observations from a re-analysis of the deposited data

Results flagged for a closer look

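Of 90 groups of 5 arrays tested for 45 named genes, 6 held an array far from the other 4, where chance flags about 1 in 20. Control replicate 3 was low in 3 of them, at 8.82 for Smtn (others 8.90 to 8.93), 9.67 for Tln1 (others 9.86 to 9.89) and 10.29 for Cnn3 (others 10.41 to 10.45). DKO replicate 1 was low for Tpm2, at 7.23 (others 7.41 to 7.47), and high for Myl12a, at 10.13 (others 9.96 to 10.01). Control replicate 5 was high for Tns1, at 10.81 (others 10.67 to 10.70).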

How the results depend on the processing

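Of 20 alternative fits, none called a member lower, and Myh10 and Vcl passed in all. The 11 higher members became 7 after subtraction of array medians, 3 (Cnn3, Myh10 and Vcl) with the replicate block, and 4 to 9 without any single array. With the Xist level as a covariate they became 8, and the calls of Mylk, Flna and Tpm1 ended. The median change was 0.25 to 0.33 for widely expressed genes, and -0.01 to 0.08 for smooth muscle-specific genes, and the medians were again 0.29 and 0.03 with Mylk and Myl9 placed among the widely expressed genes. Over all genes the 414 higher became 271 after subtraction of medians, 264 without moderated variance, 162 with the replicate block and 232 to 372 without any single array. The 73 lower became 125 after quantile normalization, 34 without moderated variance, 16 with the replicate block, 46 with Xist as a covariate and 28 to 64 without any single array. Xist, a transcript of female cells, was high in 2 DKO and 3 control arrays. Both groups thus mixed the sexes, which the labels do not state. Arrays sharing a replicate number did not regularly deviate together (r of -0.27 to 0.29, and 0 of 5 DKO arrays matched their own number best). The labels state no pairing, and these correlations cannot settle whether the numbers stand for one. The counts with the replicate block therefore stand beside those of the main fit. The cause of these differences was not tested. With 5 arrays per group, small differences can be missed.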

Other observations

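Further marker lists were read for cells that carry contractile genes or could lie beside the pancreas. None of 12 skeletal muscle markers passed (0 at an unadjusted p under 0.05), with summed intensities of 1061 to 1208 in DKO and 1128 to 1261 in control. None of 9 cardiac muscle markers passed (2 at an unadjusted p under 0.05), with sums of 829 to 930 in DKO and 882 to 937 in control. None of 6 gut wall neural and pacemaker markers passed (2 at an unadjusted p under 0.05), with sums of 2460 to 2787 in DKO and 2342 to 2748 in control. None of 6 mesothelial markers passed (0 at an unadjusted p under 0.05), with sums of 3615 to 5442 in DKO and 3507 to 5716 in control. Islet markers (0 of 8 past the test, 2 at an unadjusted p under 0.05) summed to 24913 to 27304 in DKO and 27262 to 32703 in control. Adipocyte markers (0 of 7, and 0 at an unadjusted p under 0.05) ranged widely, from 1470 to 6613 in DKO and from 2782 to 4050 in control. Leukocyte markers (0 of 9, and 1 at an unadjusted p under 0.05) summed to 2258 to 3721 in DKO and 2751 to 3324 in control, and hepatocyte markers (0 of 9, and 0 at an unadjusted p under 0.05) to 2419 to 41485 in DKO and 2997 to 7291 in control.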
